A study of Mus musculus with 6 samples.

Results

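The genes described here are ligands and receptors that were first known for steering growing axons: Slits and their Robo receptors, Eph receptors and ephrins, semaphorins with their plexin and neuropilin receptors, and the Flrt proteins with the netrin receptors of the Unc5, Dcc and neogenin families. The members were 59 listed genes, and each probe of the array whose platform gene symbol is on that list was taken, whatever its values. Of the listed genes 56 had a probe, out of 19057 named genes, with 150 probes in all, and Robo3, Ephb2 and Sema5b had none in the annotation used.

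Kidneys of mouse embryos at E13.5, in mid-gestation, were compared on Illumina bead arrays, with 3 control and 3 YapCM-/- arrays, and both groups had a mixed background of C57BL/6 and 129S1/SvImJ. Yap is the transcriptional coactivator restrained by Hippo signalling. The labels do not spell out CM. In the published study it means cap mesenchyme, in which a Six2-driven Cre deletes the gene in nephron progenitors and therefore also in the nephron cells that descend from them, while ureteric bud, stroma and vessels keep it. The labels call the other group control and give no alleles for it, and they do not say whether replicates came from separate embryos, so that p-values cover no more than the spread among these 6 samples, in part perhaps technical.

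Guidance cues also shape organs other than the nervous system. In the mouse kidney, Slit2 acting through Robo2 limits where the ureteric bud grows out, and loss of either gives extra buds, while semaphorins and ephrins act on ureteric branching, on the insertion of the ureter and on vessels. Flrt proteins are single-pass membrane proteins with leucine-rich repeats that bind Unc5 receptors and latrophilins on neighbouring cells. In RNA of a whole organ, fewer cells of a type and less RNA per cell cannot be told apart.

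Values are log2 signals as deposited, and differences are YapCM-/- minus control on the log2 scale. The 6 arrays correlated with each other at 0.983 to 0.993 over the tested probes, which are not independent replicates. Tested was the brighter 50% of all probes, by their mean over the 6 arrays, and with it 91 of the 150 member probes, which covered 45 genes. A call was an adjusted p under 0.05 in limma over all 22640 tested probes. Yap1, the deleted gene, read 9.73 ± 0.09 in control and 8.87 ± 0.14 (SD, n = 3 each) in YapCM-/- kidneys, a log2 difference of -0.86 (adjusted p = 0.0102). The sources used here do not say whether its probe lies in the deleted stretch.

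A single guidance gene passed the test, Flrt1, which rose about 2.02-fold on 1 of its 2 probes. Its brighter probe, ILMN_2495167, read 8.28, 8.18 and 8.25 in control replicates 1 to 3 and 9.32, 9.32 and 9.11 in YapCM-/- replicates 1 to 3. All 3 YapCM-/- arrays lay far above all 3 control arrays, and no array stood apart from its group. The means were 8.24 ± 0.06 and 9.25 ± 0.12 (SD, n = 3 each), a log2 difference of 1.02 (SE 0.086, 95% interval 0.82 to 1.21, limma adjusted p = 0.00175), and the fold is on this scale. By p it ranked 3 of the 22640 tested probes, and by size 4 of the 17 that were called higher. The call held in all 14 other settings of the fit, with an adjusted p between 0.000529 and 0.0262.

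The other Flrt1 probe, ILMN_2708133, did not share this difference. It read 7.39, 7.35 and 7.36 in control and 7.55, 7.43 and 7.26 in YapCM-/- kidneys, so that the groups overlapped. Its log2 difference was 0.05 (95% interval -0.15 to 0.24, adjusted p = 0.894), and its upper bound lies below the lower bound of the brighter probe. The platform annotation ties the dim probe to a RefSeq mRNA of Flrt1 and lists no transcript for the bright one. Both probes are counted as Flrt1 by the annotation, which can be old.

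The Flrt1 locus on chromosome 19 is shared with other genes. In the RefSeq gene table Flrt1 lies wholly inside Macrod1, a mono-ADP-ribosylhydrolase gene, and overlaps 2 further transcripts, 5730409K12Rik and Gm38621. The 1 probe of Macrod1 read from 7.29 to 7.50 in control and from 7.30 to 7.57 in YapCM-/- kidneys, a difference of 0.06 (adjusted p = 0.867). The 1 probe of 5730409K12Rik, an RNA listed without a protein, read 7.95, 7.81 and 7.72 in control and 8.50, 8.37 and 8.22 in YapCM-/- kidneys. It thus stood higher on every YapCM-/- array, in the same direction as the bright Flrt1 probe, by 0.54 (SE 0.097), and missed the threshold (adjusted p = 0.0868). No transcript is listed for that probe either, so which RNA of the locus these probes read was not tested. Macrod1, 5730409K12Rik and this overlap were looked at after the Flrt1 values were known.

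**Figure D1:**
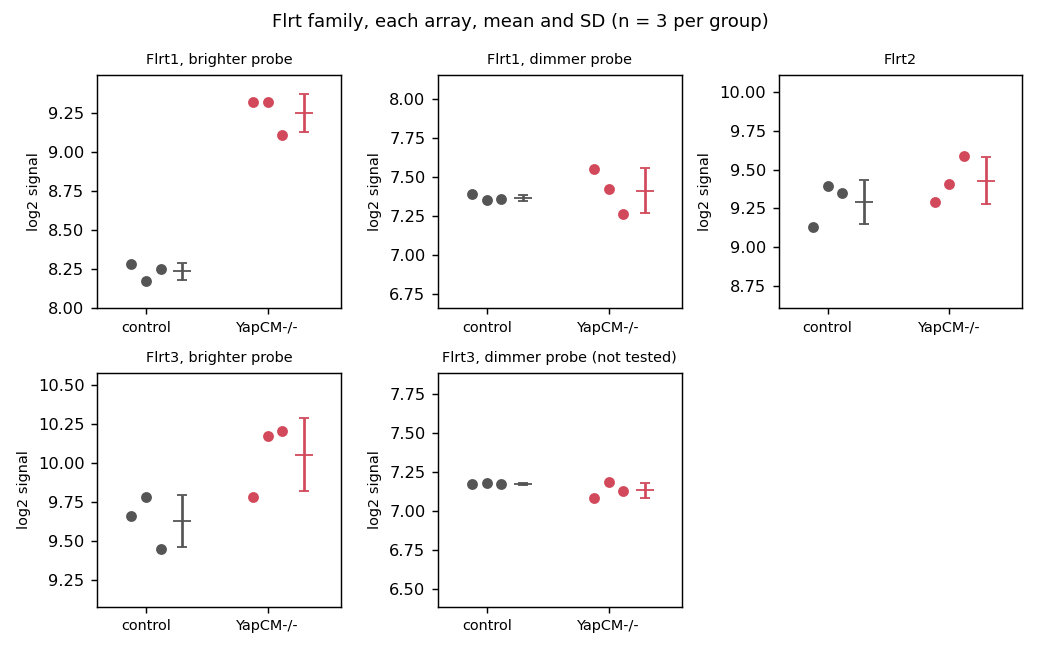
Log2 signal of every probe of Flrt1, Flrt2 and Flrt3 on each array (points), with the mean and SD of the 3 arrays of a group beside them. The brighter Flrt1 probe is the 1 panel in which the groups lie far apart, at 8.24 and 9.25, while the dimmer Flrt1 probe reads 7.37 and 7.41.

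The close relatives of Flrt1 did not pass the test. Flrt3, whose ectodomain binds Unc5b and which promotes FGF signalling in frog embryos, read 9.66, 9.78 and 9.45 in control and 9.79, 10.17 and 10.21 in YapCM-/- kidneys. The groups did not overlap, but YapCM-/- replicate 1 and control replicate 2 lay next to each other. The difference was 0.42 (SE 0.127, 95% interval 0.14 to 0.71, adjusted p = 0.246), and 0.33 to 0.56 with any 1 array left out. Flrt2 read 9.13 to 9.39 in control and 9.29 to 9.59 in YapCM-/- kidneys (0.14, adjusted p = 0.673). Flrt3 lies in Macrod2 as Flrt1 lies in Macrod1, and the tested Macrod2 probes differed by -0.0046 to 0.06.

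Among the netrin receptors, Unc5c, which mediates repulsion by netrin, had a matching pair of bright probes. They differed by -0.27 (SE 0.085, adjusted p = 0.27) and -0.25 (SE 0.092, adjusted p = 0.336). The first read 10.53, 10.33 and 10.38 in control and 10.23, 10.08 and 10.13 in YapCM-/- kidneys, and on both probes every YapCM-/- array lay below every control array. The remaining tested probe of Unc5c was dim and stood at -0.03. Unc5b, a receptor of endothelial tip cells, was at 0.20 (95% interval -0.0058 to 0.40, adjusted p = 0.452), from 8.87 to 9.02 in control and from 9.06 to 9.31 in YapCM-/- kidneys. The attractive netrin receptor Dcc, at 0.12 on its 1 tested and dim probe, and its relative Neo1, at -0.05 on its brightest, also did not pass, and Unc5d had no tested probe.

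Counted over all members, 1 of 91 tested probes passed, that of Flrt1, where 0.177% of all tested probes passed and 0.0751% were called higher. At an unadjusted p under 0.05 stood 9 member probes, or 9.89%, against 11.5% of all tested probes. They were 6 higher and 3 lower ones, and over all tested probes 5.53% were higher and 5.92% lower. The groups did not overlap at 15 member probes, 16.5% of them, the same share as the 16.5% of all tested probes. With the brightest tested probe standing for each gene, 9 of 45 genes had groups that did not overlap, or 20%, against 18% of all tested genes. The median difference was 0.01 for the 45 members and 0.0039 for all 11762 tested genes. All these shares lie near the background except the call of Flrt1 itself, a single probe. How small a difference in deposited signal the arrays could have shown is given by the intervals. For 35 of the 45 genes the 95% interval lay within 0.5 of no difference in both directions. Over the 91 probes the interval reached a median of 0.21 to either side of the estimate. Folds of dim probes are understated without background subtraction, so there the interval does not bound the difference in RNA. The mean was below 8 for 14 of the 45 genes.

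**Figure D2:**
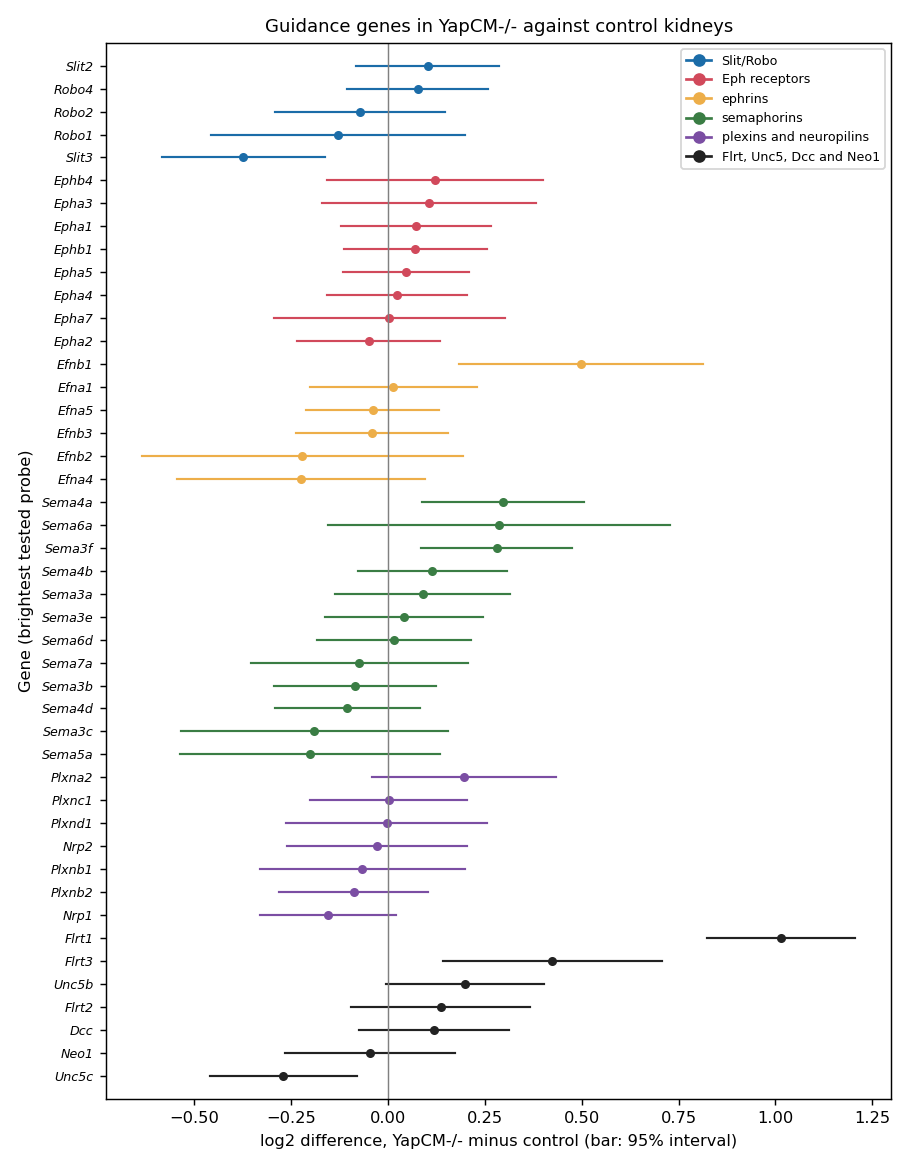
Log2 difference, YapCM-/- minus control, of the brightest tested probe of each of 45 guidance genes (points), with the 95% interval of the limma fit (bars) and colours by family. Flrt1 stands alone at 1.02, and Slit3 at -0.37, Unc5c at -0.27, Efnb1 at 0.50, Flrt3 at 0.42, Sema4a at 0.30 and Sema3f at 0.28 are the others whose interval leaves out 0.

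The Slit and Robo genes, which position the ureteric bud, showed no call among 19 tested probes of 5 genes. Slit2, the ligand, read 10.52, 10.54 and 10.42 in control and 10.58, 10.50 and 10.70 in YapCM-/- kidneys on its bright RefSeq probe. The groups overlapped, and the difference was 0.10 (95% interval -0.08 to 0.29, adjusted p = 0.699). Over the 5 tested Slit2 probes the differences ran from -0.06 to 0.27. The brightest probe of Robo2, its receptor, read 9.48, 9.47 and 9.17 in control and 9.25, 9.35 and 9.31 in YapCM-/- kidneys. That is a difference of -0.07 (95% interval -0.29 to 0.15, adjusted p = 0.84), and the YapCM-/- arrays all lay within the control range. Over the 7 tested Robo2 probes the differences ran from -0.13 to 0.18. A dim one was at -0.09, with every YapCM-/- array below every control array. Robo1 read 11.47, 11.53 and 11.38 in control and 10.95, 11.43 and 11.61 in YapCM-/- kidneys on its brightest probe (-0.13, adjusted p = 0.801). There YapCM-/- replicate 1 alone lay far below the rest. A dim Robo1 probe was at 0.13 (adjusted p = 0.54), with every YapCM-/- array above every control array. Robo4, the endothelial Robo, was at 0.08 (adjusted p = 0.788).

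Slit3, whose loss in mice affects the diaphragm and the kidney, was the Slit with the smallest p. Its brighter probe, tied to a clone other than a RefSeq mRNA, read 9.19, 9.30 and 9.10 in control and 8.69, 8.97 and 8.81 in YapCM-/- kidneys. All YapCM-/- arrays lay below the control arrays, and the difference was -0.37 (SE 0.094, 95% interval -0.58 to -0.16, unadjusted p = 0.00274, adjusted p = 0.195), with -0.45 to -0.31 when any 1 array was left out. The other tested Slit3 probe was dim and stood at -0.08. The family's median over 5 genes was -0.07, but 0.06 without YapCM-/- replicate 1.

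Mouse mutants tie Slit2 and Robo2 to the genes that set the Gdnf domain and the response of the bud to it. Of 13 tested genes on a list of these, Ret, the receptor for GDNF at the bud tips, rose by 0.83 (adjusted p = 0.0147) and 0 fell, where 0.264% of all tested genes passed in either direction. Foxc1, which restricts the Gdnf domain, was at 0.50 (adjusted p = 0.22), Six2 at -0.36 and Pax2 at -0.36 (adjusted p = 0.193 each). The list's median was 0.10, and 7 of its 13 genes had groups that did not overlap, against 18% of all tested genes. The list was drawn up with earlier results of these data known.

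The Eph receptors differed little between the groups in deposited signal. None of the 16 tested probes of 8 genes had an unadjusted p under 0.05 in limma, against 11.5% of all tested probes. With 16 probes that is a gap of few probes. Of the 16, 12 differed by less than 0.1, as did 13250 of all 22640 tested probes. The mean was below 8 for 4 of the 8 genes, and folds of dim probes are understated. Epha7, which with Epha4 takes part in joining the ureter to the bladder, read 9.39, 9.72 and 9.45 in control and 9.24, 9.58 and 9.74 in YapCM-/- kidneys (0.0036, 95% interval -0.29 to 0.30). The spread within both groups was wide and the groups covered the same range. Epha4 was at 0.02 on 1 dim probe. For Ephb4, the receptor of veins, the 2 bright probes stood on opposite sides of 0, at 0.12 (adjusted p = 0.775) and -0.21 (adjusted p = 0.526), and a dim one was at -0.0094. Epha3 was at 0.11, Epha1 at 0.07, Ephb1 at 0.07, Epha5 at 0.05 and Epha2 at -0.05 on their brightest tested probes. The dimmer tested Epha3 probes were at -0.09 and -0.13, the former with every YapCM-/- array below every control array. Ephb3 and Ephb6 had dim probes that were not tested.

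Of the ephrins, the membrane-bound ligands of Eph receptors, Efnb1 had the smallest p. It read 10.99, 10.46 and 10.92 in control and 11.43, 11.33 and 11.10 in YapCM-/- kidneys. Every YapCM-/- array was higher than every control array, while control replicate 2 lay well below the other 2 control arrays. The difference was 0.50 (SE 0.141, 95% interval 0.18 to 0.81, adjusted p = 0.23), and 0.33 without control replicate 2. Efnb1 lies on the X chromosome, and that replicate was the 1 control array with a high Xist signal. Its Xist signal was 11.81, against 7.23 and 7.26 in control replicates 1 and 3. YapCM-/- replicate 3, which had the lowest Efnb1 signal of its group, was likewise the 1 YapCM-/- array with a high Xist signal, 11.47. The sign of the Efnb1 difference held with Xist as covariate, and its cause was not tested. Efnb2, the ephrin of arteries, read 9.55, 10.33 and 9.72 in control and 9.39, 9.81 and 9.73 in YapCM-/- kidneys (-0.22, 95% interval -0.63 to 0.19, adjusted p = 0.713), with control replicate 2 now the highest array. Efna4 was at -0.22 (adjusted p = 0.605) and -0.08 on 2 probes. Efna1, at 0.01, Efna5, at -0.04 on its brighter probe, and Efnb3, at -0.04, differed little. A dim Efna5 probe was at 0.14 (adjusted p = 0.562), with every YapCM-/- array above every control array. Efna2 and Efna3 were not tested.

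The secreted class 3 semaphorins act through neuropilins and class A plexins, and Sema3f, a ligand of Nrp2, had probes that matched. Its 2 bright probes differed by 0.28 (SE 0.088, adjusted p = 0.267) and 0.29 (SE 0.132, adjusted p = 0.45). The brighter one read 10.55, 10.34 and 10.59 in control and 10.83, 10.74 and 10.74 in YapCM-/- kidneys, without overlap. The other overlapped, because control replicate 3 read 10.42 there. Sema3a, which restrains ureteric branching in mouse kidney culture, was at 0.09 (95% interval -0.14 to 0.32, adjusted p = 0.80), and Sema3e was at 0.04.

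Sema3c and Sema3b had probes on both sides of 0. For Sema3c the brighter probe was at -0.19 (adjusted p = 0.702) and the other at 0.26 (adjusted p = 0.593), the latter from 8.05 to 8.31 in control and at 8.41, 8.86 and 8.11 in YapCM-/- kidneys. A dim Sema3b probe was at 0.23 (unadjusted p = 0.035, adjusted p = 0.399), and the brightest Sema3b probe at -0.09.

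The class 4 semaphorin Sema4a, a membrane ligand of plexins, read 8.06, 8.23 and 8.33 in control and 8.48, 8.42 and 8.61 in YapCM-/- kidneys. The groups did not overlap, and the difference was 0.30 (SE 0.094, 95% interval 0.09 to 0.51, adjusted p = 0.271). Sema4b was at 0.12 and Sema4d at -0.10. Sema5a, on a pair of bright probes, was at -0.20 and -0.16 (adjusted p = 0.668 and 0.815), with YapCM-/- replicate 3 in or above the control range and the other 2 YapCM-/- arrays below it. Sema6a was at 0.29 (adjusted p = 0.639) on its brighter tested probe, tied to a clone other than a RefSeq mRNA. That probe read 8.15, 7.82 and 8.03 in control and 8.49, 8.63 and 7.75 in YapCM-/- kidneys. The other tested Sema6a probe, tied to a RefSeq mRNA, was at -0.04. Of 22 tested semaphorin probes 0 passed in limma, and 3 had an unadjusted p under 0.05, or 13.6%, against 11.5% of all tested probes.

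**Figure D3:**
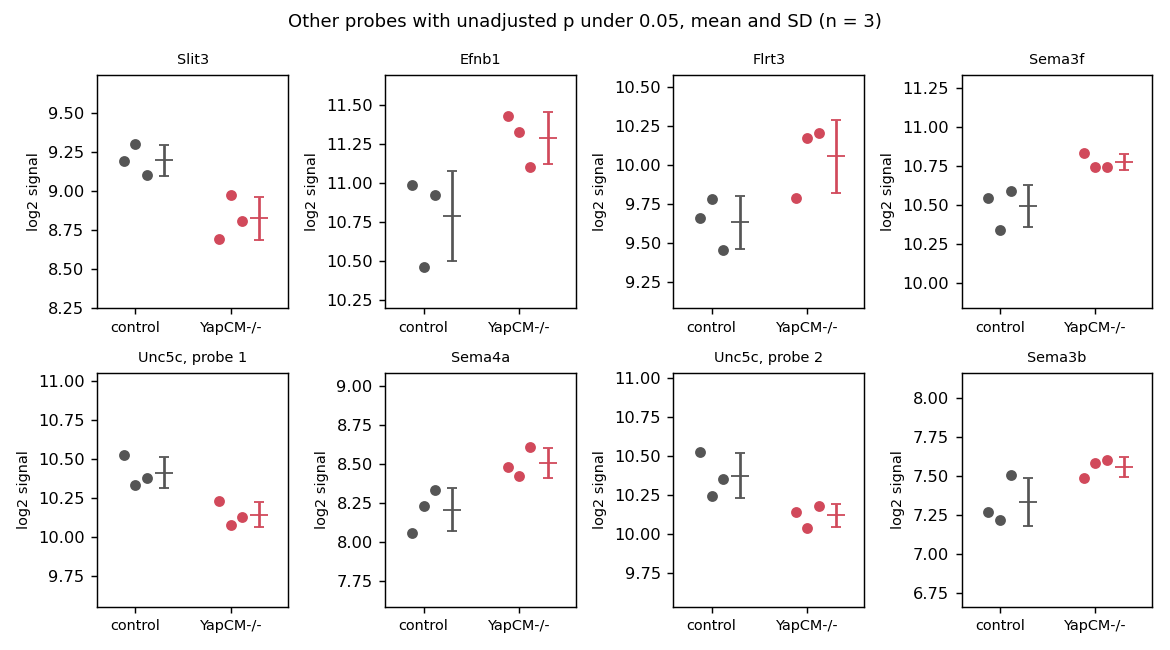
Log2 signal on each array (points), with mean and SD of 3 arrays, for the 8 member probes besides Flrt1 with an unadjusted p under 0.05. The groups do not overlap in 7 of the panels and overlap in that of Sema3b, and none of these probes passed the adjusted threshold.

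Plexins and neuropilins, the receptor side, had 0 of 13 tested probes with an unadjusted p under 0.05 in limma, against 11.5% of all tested probes, a gap of 1 or 2 probes in 13. Nrp1, a receptor for class 3 semaphorins and a coreceptor for VEGF, had 2 bright probes at -0.16 each (adjusted p = 0.497 and 0.573), the first from 11.68 to 11.73 in control and from 11.47 to 11.65 in YapCM-/- kidneys. A dimmer Nrp1 probe, tied to another clone, was at 0.34 (adjusted p = 0.627) and split the YapCM-/- arrays, with 9.40, 9.35 and 8.39. Nrp2 was at -0.03 on its brightest probe and at -0.11 on a dim one, the latter with every YapCM-/- array below every control array. Plxnd1, the endothelial receptor for Sema3e, was at -0.0035, -0.08 and -0.02 on 3 probes. Plxna2 stood at 0.20 (adjusted p = 0.529), Plxnc1 at 0.0017, and Plxnb1 and Plxnb2, whose loss alters ureteric branching in mouse, at -0.07 and -0.09.

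Several members are genes of vessels, and markers of endothelium were higher in YapCM-/- kidneys in sum. The 8 endothelial markers, all tested, summed to 7600 to 8683 linear signal units in control and 8865 to 9703 in YapCM-/- kidneys, without overlap, although 0 of them passed in limma, with 3 higher at an unadjusted p below 0.05 where 6.6% of all tested genes were, and Pecam1 and Cdh5 were at -0.07 and -0.03. Next to this, the vascular members went both ways on their brightest probes: Unc5b at 0.20, Ephb4 at 0.12, Robo4 at 0.08, Plxnd1 at -0.0035, Nrp1 at -0.16 and Efnb2 at -0.22. Another bright probe of Ephb4 was at -0.21, and a dimmer one of Nrp1 at 0.34. The 5 tested ureteric bud markers summed to 5927 to 6162 in control and 6908 to 7290 in YapCM-/- kidneys, and podocyte markers, with 2 tested, to 1138 to 1497 and 898.9 to 1087. Of the bud markers Ret alone passed in limma, at 0.83, and the bright Hoxb7, at 0.16, also had groups that did not overlap. Wnt9b, Gata3 and Wnt11 overlapped, at 0.16, 0.15 and 0.06. Cap mesenchyme sums overlapped, at 3202 to 4164 and 3656 to 3990, as did those of stroma, at 11370 to 14310 and 11310 to 13450, and of blood. The cap mesenchyme markers went both ways. Cited1 fell by 0.72 (limma adjusted p = 0.00662), and Six2 and Meox1 were at -0.36 and -0.18. Eya1 was at 0.34 (limma adjusted p = 0.242), with every YapCM-/- array above every control array, and Crym and Osr1 were at 0.22 and 0.07. The bright Crym weighs heavily in that sum. Of 13 markers of neurons, glia and neural crest 4 were tested, Sox10, Hand2, Th and Dbh being among the 7 whose probes were too dim, and their sum was 1038 to 1163 in control and 964.4 to 1396 in YapCM-/- kidneys, the highest being YapCM-/- replicate 3. The part of these cell types in the values of the guidance genes was not tested.

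**Figure D4:**
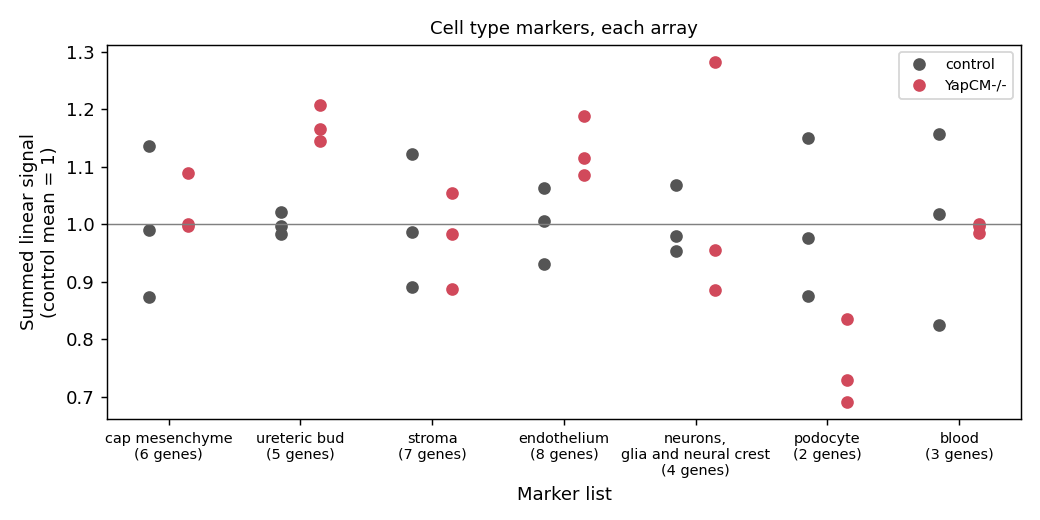
Summed linear signal of the tested markers of each cell type on each array (points), divided by the mean of the 3 control arrays. Ureteric bud and endothelial sums lie higher, and podocyte sums lower, on all 3 YapCM-/- arrays, and the other lists overlap between the groups.

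Guidance genes outside the membership, from a list of other family genes, netrins and coreceptors, and effectors inside the cell, showed no call either. Of 20 tested other family genes 0 passed in limma and an unadjusted p under 0.05 was seen for 3 higher genes and 0 lower ones, against 6.6% and 6.86% of all tested genes. Among them were Adgrl1, a latrophilin and thus of the receptor family that Flrt proteins bind, at 0.34 (adjusted p = 0.231), and Ntn3, a netrin, at 0.33 (adjusted p = 0.312). Of 34 tested effectors 0 passed in limma, and an unadjusted p below 0.05 was seen for 5 higher genes and 1 lower one, again beside the 6.6% and 6.86% of all tested genes. Srgap3, whose protein binds Robo receptors, was at 0.28 (adjusted p = 0.227), the GTPase Rac1 at 0.25 (adjusted p = 0.271) and Arhgef11 at 0.35 (adjusted p = 0.302). The 1 lower gene was Mical1, an actin-oxidising enzyme downstream of plexins, at -0.24 (adjusted p = 0.367). The median differences of these lists were 0.02 and 0.05.

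For 25 genes more than 1 probe was tested. Their tested probes stood on both sides of 0 at 15 genes and on 1 side at 10. At 24 of the 25 the 95% intervals of all the gene's tested probes overlapped, the exception being Flrt1. Flrt1 also had the widest gap, 0.97, followed by Nrp1 at 0.50 and Sema3c at 0.45, while the pair of Sema3f probes differed by 0.0066. The probes fell into kinds by their annotation. YapCM-/- replicate 2 was the highest array at 9 of 20 tested member probes tied to clones other than RefSeq mRNAs (45%), at 7 of 68 tied to a RefSeq mRNA (10.3%), and among all named tested probes at 23.4% and 14.6%. Clone probes of Robo2, at 8.60 against 7.63 to 7.93 on the other arrays, of Epha7, at 8.30 against 7.53 to 7.88, and of Sema3c, at 8.86 against 8.05 to 8.41, showed this most plainly.

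**Figure D5:**
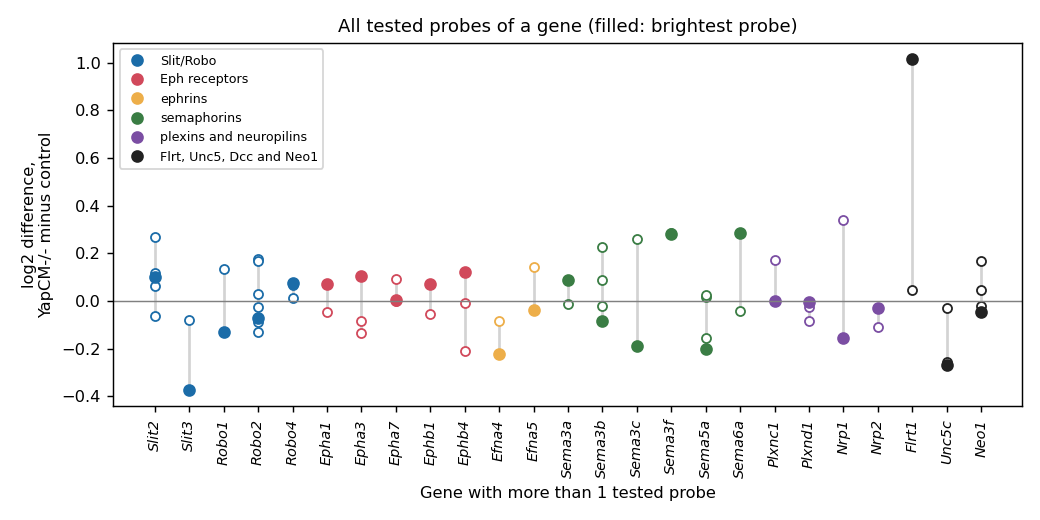
Log2 difference, YapCM-/- minus control, of each tested probe (points) of the 25 guidance genes with more than 1, with the brightest probe filled and colours by family. Flrt1 spans 0.05 to 1.02, and the other genes plotted lie at or below 0.34 on every probe.

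The 59 probes that were too dim to be tested differed by -0.15 to 0.22. At 6 of them, 10.2%, the groups did not overlap, against 10.8% of all probes too dim to be tested, and 3 of these 6 also had an unadjusted p under 0.05 when all probes were fitted, 5.08% against 2.55%. The 3 were probes of Efna2, from 6.93 to 6.97 in control and 7.09 to 7.14 in YapCM-/- kidneys, Ephb6, from 7.19 to 7.27 and 7.07 to 7.09, and another Unc5c probe, from 6.98 to 7.11 and 7.14 to 7.37. These lie at the floor of the signal and against the direction of the bright probes in the case of Unc5c. No adjusted p of them passed, and all were picked out with their values known. The other 3 without overlap were probes of Slit2, Nrp2 and Sema6d.

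Yap binds DNA through TEAD factors, whose core motif GGAATG reads as CATTCC on the opposite strand, so the promoters of the members were searched for it, in windows from 250 bases before to 50 after a start site (RefSeq, GRCm38.p6). Of the 59 members 50 matched by symbol, with 64 windows, and 8 windows held a match on either strand, 12.5%, against 14.7% of all 32841 windows. Those were windows of Efnb2, Epha1, Epha2, Epha3, Plxnb1, Plxnd1, Robo2 and Sema4a. Flrt1, Sema3b and Sema3f had no entry to search. Of the 5 other genes with an unadjusted p under 0.05 on a tested probe, Sema4a was the 1 with a match, at -144 from 1 of its 4 start sites, and its window is printed beside that of Flrt3, the relative of Flrt1, which holds none. Capitals mark the motif, and a match is a description of letters only.
Sema4a, chr3:88458835-88459134, minus strand: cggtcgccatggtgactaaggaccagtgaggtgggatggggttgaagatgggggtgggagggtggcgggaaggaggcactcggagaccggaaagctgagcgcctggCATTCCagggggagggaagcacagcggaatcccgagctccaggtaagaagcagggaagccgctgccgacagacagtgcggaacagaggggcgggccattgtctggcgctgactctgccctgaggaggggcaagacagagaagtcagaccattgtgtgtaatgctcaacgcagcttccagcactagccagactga
Flrt3, chr2:140671427-140671726, minus strand: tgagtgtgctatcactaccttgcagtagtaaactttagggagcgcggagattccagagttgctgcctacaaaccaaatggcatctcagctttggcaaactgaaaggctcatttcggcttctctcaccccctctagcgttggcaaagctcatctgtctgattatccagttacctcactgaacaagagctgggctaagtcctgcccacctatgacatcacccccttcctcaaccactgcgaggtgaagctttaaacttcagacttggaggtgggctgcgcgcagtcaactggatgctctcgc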

How the data were processed

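Biotin-labelled cRNA made from total RNA of embryonic kidneys was, per the labels' protocols, read on bead arrays from Illumina. The authors deposited log2 signals of 45281 probes, which look quantile normalized, since sorted columns differ by at most 0.00608. The sources used here name no software or background step, and no background subtraction is visible, so that folds of dim probes are understated. The 12 columns of a second deposited table match no sample's labels and were not used here.

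Probes were named through the platform annotation, and overlapping genes were taken from the RefSeq table of GRCm38.p6. The 2 groups were compared in limma 3.58.1 (R 4.3.3) with lmFit and eBayes, two-sided, over the 22640 probes with a mean above 7.29. P-values were adjusted by Benjamini-Hochberg, and the fit was tested on simulated data. The number of arrays, 3 a group, limits precision.

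Members and lists were chosen with earlier results of these data known. Named were all Flrt1 probes, members past the threshold, up to 6 members per family with the smallest p, and 17 members with known roles in kidney or vessels. From each other list up to 4 genes were named, apart from the cell type markers. Other settings changed the filter, the eBayes options, array weights, a replicate block, Xist as covariate, background subtraction, centring and the arrays used. The brightest Xist probe read 11.81 in control replicate 2 and 11.47 in YapCM-/- replicate 3, and 7.23 to 7.35 on the other arrays.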

Additional observations from a re-analysis of the deposited data

How the results depend on the processing

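Flrt1 was called in all 14 other settings, at 0.98 to 1.39. No other member probe was called in any of them, or at an adjusted p of 0.1 in the main fit. Over the other settings the lowest limma adjusted p was 0.0556 for Efnb1 and 0.0935 for the brighter Slit3 probe. The signs of the 8 probes besides that of Flrt1 with an unadjusted p under 0.05 held in every setting in which they were tested. Over all 91 tested member probes, 8 to 13 signs turned when 1 array was left out, and array weights turned 2.

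The count of all probes called, 40, was 26 among the brightest 25%, 64 with trend and robust options, 138 with the replicate block, 67 with Xist as covariate, 8 with the background subtracted, 87 at an adjusted p of 0.1, and 6 to 27 with 1 array left out. Replicate numbers paired samples weakly, with correlations of the deviations of 0.13, 0.14 and -0.02 for replicates 1 to 3. Replicates 1 and 2 were over the threshold of 0.1 set for pairing, and replicate 3 was not. The labels do not say what samples of the same number share, so the block is only an alternative.

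Family medians moved by more than the spread between arrays as follows, and, where a range is given, at only 1 of its ends. That of the Eph receptors, 0.06, was 0.13 with the background subtracted, 0.01 over the mean of each gene's probes and 0.0038 to 0.082 without 1 array. That of Flrt, Unc5, Dcc and Neo1, 0.14, was 0.25 with the background subtracted. Among the brightest 25% of probes the semaphorin median, 0.03, was 0.12 and that of all members, 0.01, was 0.071. Without 1 array the Slit/Robo median ran from -0.17 to 0.061, that of plexins and neuropilins from -0.10 to 0.0025, and that of all members from 0.0030 to 0.047. The cause was not tested.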
